A study of Mus musculus with 4 samples.

Results

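Aminoacyl-tRNA synthetases are the enzymes that load each transfer RNA (tRNA) with its amino acid, the step that sets the genetic code before translation. In mice one group of nuclear genes encodes the cytosolic enzymes, and another group, named with a final 2 in most cases, encodes enzymes that are imported into mitochondria. Several cytosolic enzymes sit together in a multisynthetase complex held by scaffold proteins, among them Aimp1 and Aimp2, and the transcription factor ATF4 is known to drive many cytosolic synthetase genes when amino acids run short. The genes were chosen by symbol and not by their values: protein-coding rows whose symbol has the synthetase form, plus Eprs, Farsa, Farsb, Tarsl2, Aimp1 and Aimp2. This gave 40 of the 14157 genes of the deposited table, namely 21 cytosolic synthetases, 17 mitochondrial synthetases and 2 scaffold proteins. All 40 passed the filter on low values, which asked for a scaled value of 1 or more in 2 or more libraries, as did 12304 genes in all.

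The libraries came from esophageal tumours of C57BL/6 mice, all of them raised by 4NQO, a quinoline carcinogen given to mice as a model of tobacco-type damage. Replicates 1 and 8 have the genotype label S100A14 CKO and are called KO here, and replicates 3 and 6 are wild type (WT), which makes n = 2 in each group. The labels give no age, and they give neither the means of the deletion nor the cells in which it acts. They do not say whether each library is a separate animal, and the p-values reflect the spread among these 4 samples alone, which may be technical.

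The deposited table held between 11132019 and 16182109 reads per library. Nuclear protein-coding genes other than Lars2 took 1495261 and 1020347 of them in KO replicates 1 and 8, against 2067725 and 1121346 in WT replicates 3 and 6. S100a14, the deleted gene, had 0 and 1 reads in the KO libraries, against 463 and 347 in the WT libraries, as the labels imply. All 9 squamous epithelial markers were present in every library. Their values summed to 27564 and 5345 in KO replicates 1 and 8, against 53386 and 34626 in WT replicates 3 and 6, so KO replicate 8 stood apart. Skeletal muscle markers (11 of 12 listed) summed to 75.9 and 474 in KO replicates 1 and 8, against 63.1 and 78.5 in the WT libraries, and all 8 fibroblast markers to 129 and 873, against 151 and 252. In bulk tissue, fewer cells of a type and less RNA per cell cannot be told apart.

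None of the 40 genes passed the test between KO and WT tumours (limma, Benjamini-Hochberg adjusted over 12304 genes, threshold 0.05). The smallest adjusted p was 0.926, and 1 of the 40, Wars, had an unadjusted p under 0.05. Over all genes tested, 0.0% were called higher and 0.00813% lower, which is S100a14 alone. An unadjusted p under 0.05 was found for 5.25% of all genes, and for 3.62% with the lower value in KO. The counts with edgeR's quasi-likelihood test and DESeq2 on the recovered reads were likewise 0 of the 40. The descriptions that follow therefore give levels and directions of genes that did not pass the test.

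All 21 cytosolic synthetases had a negative log2 fold change, KO over WT, under the deposited scaling, where 52.5% of all genes tested did; 20 of the 21 did under quantile normalization and 19 of the 21 in DESeq2. Their median log2 fold change was −0.32, against −0.03 over all genes tested, with single genes between −1.18 and −0.08. The lean was present in each KO library set against the WT mean and was larger in KO replicate 8. There 18 of the 21 were below the WT mean with a median of −0.59, while in KO replicate 1 it was 17 of the 21 with a median of −0.25. The WT libraries differed from each other by more than KO replicate 1 did from their mean and by less than KO replicate 8 did: WT replicate 6 was below WT replicate 3 for 16 of the 21, with a median difference of −0.28. Without WT replicate 3 the median log2 fold change was −0.15 with 16 of the 21 below 0, and without WT replicate 6 it was −0.55 with 20 of the 21 below 0. Without KO replicate 1 or KO replicate 8 it equals the value of the other KO library given above. Both KO libraries lay below both WT libraries for 8 of the 21 and above for 0, where 19.3% and 14.5% of all genes tested did so. The summed squamous markers were also lowest in KO replicate 8, as were Krt4, Krt5, Krt13 and Krt14 among them. Trp63, another of these markers, had 244 and 241 in KO replicates 1 and 8, against 235 and 407 in WT replicates 3 and 6. The part of these markers in this result was not tested.

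The 16 mitochondrial synthetases other than Lars2 showed no common direction. Of these, 8 had a higher and 8 a lower mean log2 value in KO, with a median log2 fold change of −0.0033. The KO libraries were both below the WT libraries for 3 genes (Ears2, Pars2, Sars2) and both above them for 3, Iars2 and Nars2 among them, and 10 genes overlapped. These counts of the 16 were close to the 19.3% below and 14.5% above over all genes tested. Without WT replicate 3 their median was 0.30, and without WT replicate 6 it was −0.25. Counts were low, between 4 and 163 reads per gene and library, against 4 to 600 for the cytosolic genes. Per length the classes also differed in level: the median over genes was 21.6 RPKM (reads per kilobase of annotated exon, scaled to the library's nuclear protein-coding reads without Lars2) for cytosolic synthetases and 3.57 for the mitochondrial ones.

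**Figure D1:**
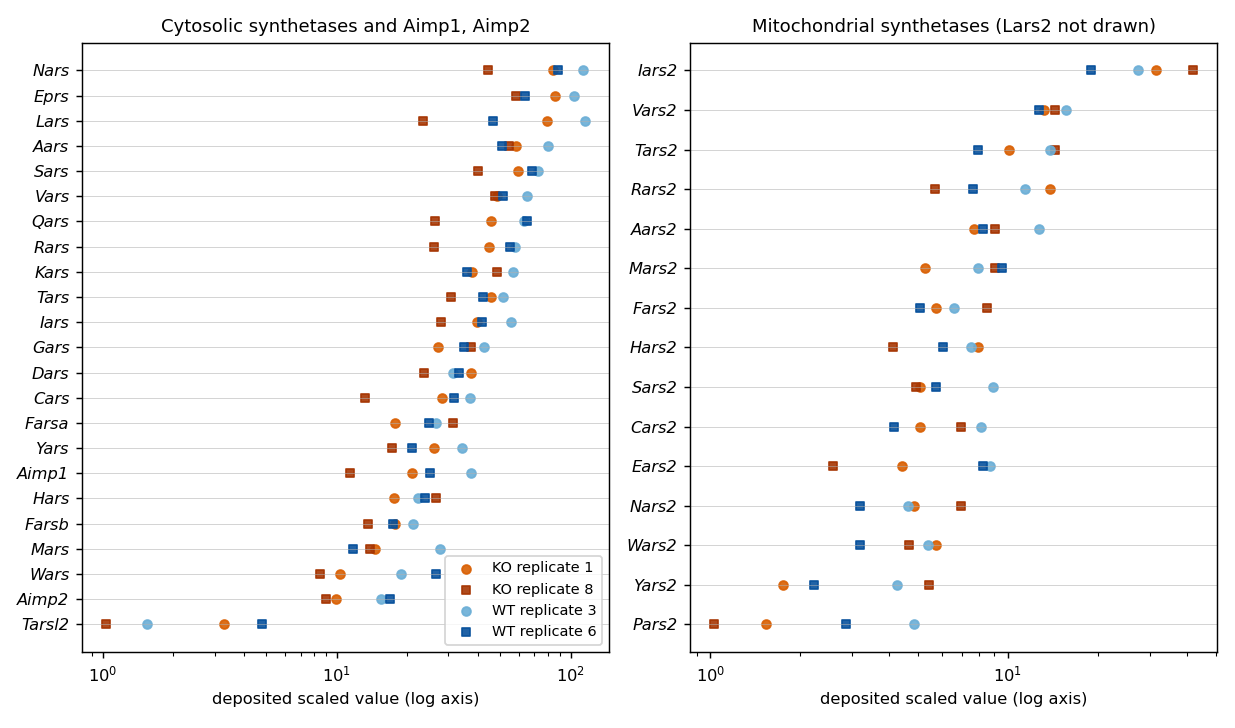
Deposited scaled value (log axis) of every member except Lars2 and 1 mitochondrial gene, in the 4 libraries, with KO in orange and brown and WT in blue. Wars, Aimp1 and Aimp2 show both KO libraries left of both WT libraries, Iars2 shows the reverse, and every mitochondrial gene drawn except Iars2 lies below a value of 16.

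Wars, the cytosolic tryptophanyl-tRNA synthetase, was the member with the smallest p. It had scaled values of 10.3 and 8.50 in KO replicates 1 and 8, from 47 and 33 reads, against 18.9 and 26.7 in WT replicates 3 and 6, from 98 and 84 reads. The groups did not overlap. The mean was 9.42 ± 1.30 in KO and 22.8 ± 5.50 in WT (SD, n = 2 each), and the log2 fold change was −1.18 (SE 0.45, limma unadjusted p = 0.0346, adjusted p = 0.926). Over every alternative run, leave-outs included, its log2 fold change lay between −1.42 and −0.94, and its smallest adjusted p was 0.251. The authors' deposited table gives Wars a log2 fold change of −1.27 with an adjusted p of 0.562.

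Interferon gamma is known to induce Wars, so the other targets of that cytokine are of interest beside it. Of 16 listed targets 13 were tested, and 9 had a positive and 4 a negative log2 fold change, with a median of 0.44 and 0 past the threshold. The lean rests on KO replicate 8: without it the median was 0.057 with 7 above and 6 below 0, and without KO replicate 1 it was 1.14 with 11 above 0. Both KO libraries were above both WT libraries for 4 of the 13 and below for 1, where 14.5% and 19.3% of all genes tested were. Gbp2, a guanylate-binding GTPase, had 6.82 and 38.4 in KO replicates 1 and 8, against 1.35 and 4.77 in WT replicates 3 and 6. Psmb8, an immunoproteasome subunit, had 4.40 and 12.1 in KO, against 1.16 and 4.45 in WT, so its groups overlapped by a small margin. Ciita, the class II transactivator, had 8 and 5 reads in KO and 0 in both WT libraries, and Irf8, a myeloid transcription factor, had 1.98 and 3.09 in KO, against 0.772 and 0.953 in WT. Ciita and Irf8 reached the filter's value of 1 in the KO libraries alone, so the filter fixed their direction. Both are among the 9 and the 4 counted above. Wars had a log2 fold change of the other sign from these 4 genes, which were named for their small p. That contrast carries no weight for Ciita and Irf8. None of the 4 passed the test (limma adjusted p = 0.926 to 0.931). The 4 targets with the sign of Wars were Tap1, Tapbp, B2m and Socs1. Of these, Tapbp had both KO libraries below both WT libraries, at 18.7 and 19.3 in KO, against 22.0 and 25.1 in WT. The 10 macrophage markers summed to 94.3 and 219 in KO, against 39.6 and 49.9 in WT, and their part in the interferon genes was not tested.

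Qars, the glutaminyl-tRNA synthetase of the complex, had 45.7 and 26.3 in KO replicates 1 and 8, against 63.1 and 65.1 in WT replicates 3 and 6. Its log2 fold change was −0.87 (SE 0.45, limma adjusted p = 0.926). Rars, the arginyl enzyme and also a complex member, had 203 and 101 reads in KO, against 301 and 173 reads in WT, and a log2 fold change of −0.71 (SE 0.45, limma adjusted p = 0.940). On the scaled values of both genes the KO libraries differed more from each other than the WT libraries did, and the groups did not overlap. The isoleucyl enzyme gene Iars had 39.8 and 27.8 in KO, against 55.6 and 41.6 in WT, which separates KO replicate 1 from WT replicate 6 by less than 2 scaled units. Over the 8 synthetases of the complex the median log2 fold change was −0.42, and over the 13 outside it −0.31. Set against the WT mean, the medians inside and outside the complex were −0.26 and −0.24 in KO replicate 1 and −0.62 and −0.59 in KO replicate 8. Without WT replicate 3 they were −0.13 and −0.15, and without WT replicate 6 −0.74 and −0.45. The KO libraries were both below the WT libraries for 3 of the 8 and 5 of the 13, and both above for 0 of either set. Over all genes tested 19.3% were below and 14.5% above.

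Outside the complex, Cars, which loads cysteine, had 28.1 and 13.1 in KO replicates 1 and 8, against 37.3 and 31.8 in WT replicates 3 and 6. Nars, the asparaginyl enzyme, had 84.2 and 44.3 in KO, against 113 and 88.3 in WT. Sars, which loads serine, had 59.6 and 40.2 in KO, against 72.6 and 68.3 in WT. In each of these genes KO replicate 8 was the lowest library and KO replicate 1 came next. Vars, the valyl enzyme, completes the 8 without overlap, at 48.6 and 47.4 in KO, against 65.4 and 51.5 in WT.

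Per length, Nars had the highest mean over the 4 libraries after Lars2, at 58.8 and 38.7 RPKM in KO replicates 1 and 8, against 65.1 and 56.9 RPKM in WT replicates 3 and 6. Rars came next at a mean of 41.4 RPKM over the 4 libraries, then Lars at 35.0. Gars, which also supplies the mitochondrial glycyl enzyme, had a mean of 34.5 RPKM and Sars 34.4. The order differed between libraries: in KO replicate 8, Gars at 45.9 RPKM and Kars and Hars at 41.3 RPKM each lay above Nars, so none of these places is firm. Lars, the cytosolic leucyl enzyme, varied widely within each group: its scaled value was 79.2 and 23.4 in KO replicates 1 and 8, against 116 and 46.7 in WT replicates 3 and 6. KO and WT libraries interleave for Lars, and its log2 fold change of −0.75 (SE 0.69, limma adjusted p = 0.970) became 0.10 without KO replicate 8.

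The remaining cytosolic genes overlapped between the groups. Aars, Dars, Eprs, Farsa, Farsb, Gars, Hars, Kars, Mars, Tars, Tarsl2 and Yars had log2 fold changes from −0.37 for Tarsl2 to −0.08 for Kars. Farsa, Hars and Kars, the alpha subunit of the phenylalanyl enzyme and the histidyl and lysyl enzymes, were above the WT mean in KO replicate 8 and below it in KO replicate 1. Dars, the aspartyl enzyme, and Eprs, the fused glutamyl and prolyl enzyme, showed the reverse. Tarsl2, a second cytosolic threonyl gene, was the scarcest of the class with 4 to 15 reads per library.

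The scaffold genes lay with the lower cytosolic genes. Aimp1 had 20.9 and 11.3 in KO replicates 1 and 8, against 37.6 and 25.1 in WT replicates 3 and 6 (log2 fold change −0.95, SE 0.49, limma adjusted p = 0.926). Aimp2 had 9.90 and 9.02 in KO, against 15.4 and 16.8 in WT (log2 fold change −0.71, SE 0.44, limma adjusted p = 0.934). Neither gene overlapped between the groups, and Aimp2 had the tighter libraries. In the annotation 29.4% of the exon length of Aimp2 overlaps Eif2ak1 on the opposite strand, and no source used here says whether the counting used strand, so reads of such pairs cannot be told apart. The third auxiliary gene of the complex, Eef1e1, is no member by the rule and had 8.80 and 12.9 in KO, against 6.95 and 8.90 in WT.

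**Figure D2:**
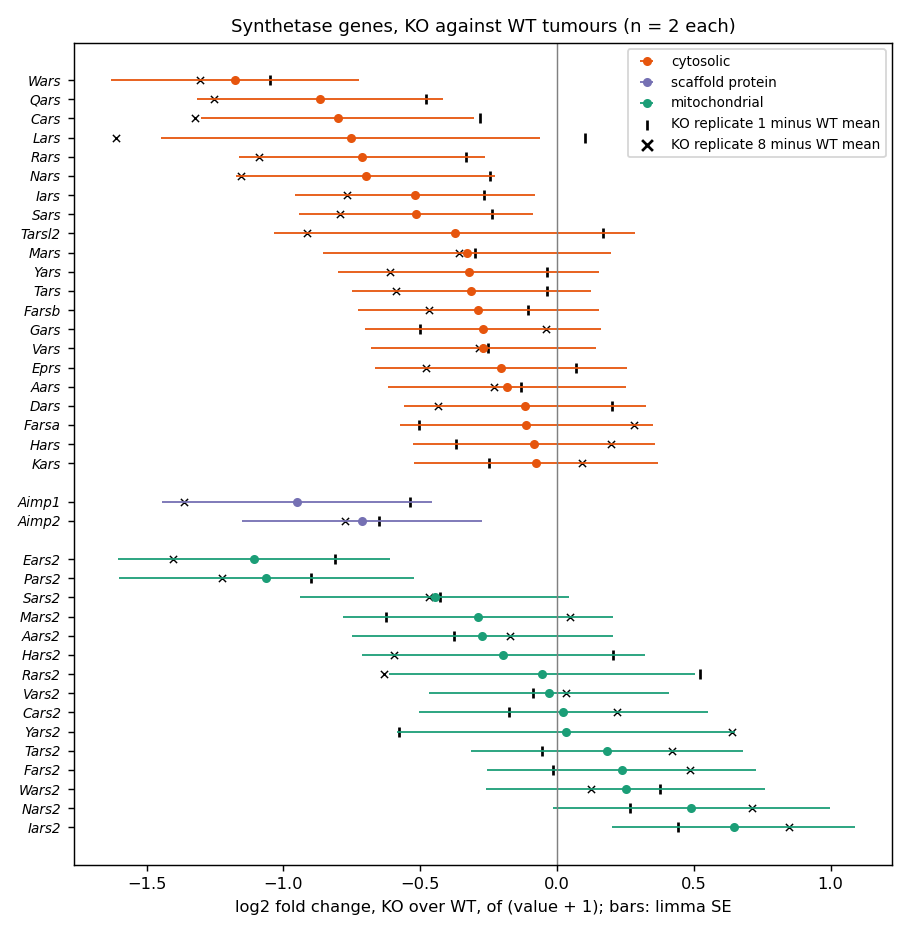
Log2 fold change of all 21 cytosolic, both scaffold and all but 2 of the mitochondrial genes, KO over WT, with points coloured by class, on the log2(value + 1) scale with the limma standard error as bars, and each KO library against the WT mean as a tick (replicate 1) or cross (replicate 8). The cytosolic genes lie left of 0 with a median of −0.32, and the mitochondrial genes lie on both sides of 0.

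Among the mitochondrial enzymes, Ears2 and Pars2, which load glutamate and proline, were lower in both KO libraries. Ears2 had 4.40 and 2.58 in KO replicates 1 and 8, from 20 and 10 reads, against 8.69 and 8.26 in WT replicates 3 and 6, from 45 and 26 reads. Its log2 fold change was −1.11 (SE 0.50, limma adjusted p = 0.926). Pars2 had 1.54 and 1.03 in KO, from 7 and 4 reads, against 4.83 and 2.86 in WT, from 25 and 9 reads (log2 fold change −1.06, SE 0.54, limma adjusted p = 0.926). The groups of both genes were apart, but those of Pars2 rest on few reads. Sars2, the seryl enzyme, had 5.06 and 4.90 in KO, against 8.88 and 5.72 in WT, close to overlap.

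Iars2, the mitochondrial isoleucyl enzyme, had the most reads of its class other than Lars2 and lay the other way. It had 31.4 and 42.0 in KO replicates 1 and 8, against 27.4 and 19.1 in WT replicates 3 and 6 (log2 fold change 0.65, SE 0.44, limma adjusted p = 0.953). Its groups did not overlap, and its read counts of 143 and 163 in KO and 142 and 60 in WT were the highest of the 16. In the annotation 22.9% of its exon length overlaps Rab3gap2 on the opposite strand. Nars2, which loads asparagine, also had both KO libraries above both WT libraries, at 4.84 and 6.96 in KO, against 4.63 and 3.18 in WT. The groups overlapped for Aars2, Cars2, Fars2, Hars2, Mars2, Rars2, Tars2, Vars2, Wars2 and Yars2, whose log2 fold changes lay between −0.29 for Mars2 and 0.25 for Wars2.

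A ratio of cytosolic to mitochondrial reads within a library does not depend on how libraries were scaled to each other. Gars was counted as cytosolic in these sums, though it also supplies the mitochondrial glycyl enzyme. The summed cytosolic reads were 6.31 and 4.20 times the summed mitochondrial reads without Lars2 in KO replicates 1 and 8, against 7.18 and 7.60 times in WT replicates 3 and 6. Both KO libraries were below both WT libraries, and KO replicate 8 was the lower of the pair. An exact permutation of 2 against 2 libraries cannot give a two-sided p below 0.333, so this difference cannot reach 0.05 in that test, and no other test was run on it. Without Iars2, a choice made after seeing the data, the ratios were 8.29 and 5.90 in KO, against 8.74 and 9.18 in WT. Of nuclear protein-coding reads without Lars2, the cytosolic synthetases took 0.252% and 0.234% in KO replicates 1 and 8 (95% Wilson intervals 0.244% to 0.260% and 0.224% to 0.243%), against 0.276% and 0.236% in WT replicates 3 and 6 (0.269% to 0.283% and 0.227% to 0.245%). The mitochondrial synthetases took 0.0400% and 0.0556% in KO (0.0369% to 0.0433% and 0.0512% to 0.0603%), against 0.0384% and 0.0310% in WT (0.0358% to 0.0412% and 0.0279% to 0.0345%). The cytosolic share thus overlapped between the groups and the mitochondrial share did not, with KO replicate 1 and WT replicate 3 within each other's intervals. Iars2 decides that separation: without it the mitochondrial share was 0.0304% and 0.0396% in KO (0.0278% to 0.0334% and 0.0359% to 0.0436%), against 0.0315% and 0.0257% in WT (0.0292% to 0.0340% and 0.0229% to 0.0288%), and the groups overlapped. These intervals cover counting error only.

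Pairs were formed by symbol, as a cytosolic gene and the same symbol with a final 2. This gave pairs for 13 amino acids, with leucine left out by choice and glutamate, proline and phenylalanine left out by the symbol rule. The ratio of the pair was lower in KO for 11 of the 13 on the mean log2 scale, with a median difference of −0.52. KO replicate 8 was below the WT mean for 12 pairs (median −0.79) and KO replicate 1 for 8 pairs (median −0.16). The WT libraries differed from each other by more than KO replicate 1 did from their mean, with a median of 0.27 for WT replicate 6 minus WT replicate 3. Both KO libraries lay below both WT libraries for 6 pairs and above for 0 of the 13. No share over other pairs of genes was worked out beside these counts. Among the genes left unpaired, the ratios of Eprs to Ears2 and to Pars2 were higher in both KO libraries than in both WT libraries. Eprs had 389 and 226 reads in KO replicates 1 and 8, against 538 and 201 in WT replicates 3 and 6. The ratios of Farsa and of Farsb to Fars2 were lower in both KO libraries than in both WT libraries. The tryptophan pair differed most, with log2 ratios of Wars to Wars2 of 0.85 and 0.87 in KO replicates 1 and 8, against 1.81 and 3.07 in WT replicates 3 and 6. The isoleucine pair had 0.34 and −0.59 in KO, against 1.02 and 1.13 in WT, so that in KO replicate 8 Iars2 had more reads than Iars. Pairs share libraries and are not independent of one another.

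**Figure D3:**
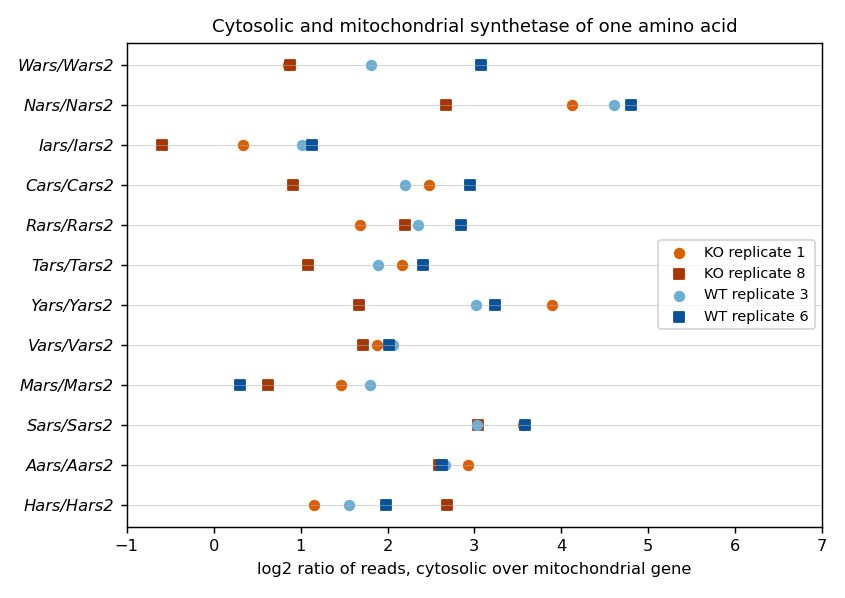
Log2 ratio of reads of the cytosolic over the mitochondrial synthetase gene, by amino acid for all pairs but 1, in the 4 libraries (KO orange and brown, WT blue). Both KO libraries lie left of both WT libraries for Wars, Nars, Iars, Rars and Vars and their partners, with Wars/Wars2 the widest apart on the mean.

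The ATF4 programme was examined at the sequence and at the level of its other targets. The composite element TGATGNAA, to which ATF4 dimers are known to bind, was searched on both strands from 250 bases before to 50 bases after each RefSeq gene start (GRCm38.p6). A promoter was at hand for 29 of the 40 genes, and not for Cars, Hars, Hars2, Lars, Mars, Nars, Pars2, Rars, Vars and Wars, among others. The element occurred in 5 of 13 cytosolic, 0 of 14 mitochondrial and 0 of 2 scaffold genes, against 4.51% of the 27025 genes in the table. A match is a description of the letters and not evidence of binding. The stretches are shown 5′ to 3′ on the gene's strand, with the element in capitals, because these 5 genes carry it among the 29 searched. Whether the members without a promoter at hand carry it is not known here.
Aars, chr8:111033694-111033763, plus strand: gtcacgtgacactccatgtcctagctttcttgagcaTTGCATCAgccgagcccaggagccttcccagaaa
Gars, chr6:55037935-55038004, plus strand: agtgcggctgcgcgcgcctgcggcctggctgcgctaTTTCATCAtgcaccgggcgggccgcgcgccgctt
Iars, chr13:49682101-49682154, plus strand: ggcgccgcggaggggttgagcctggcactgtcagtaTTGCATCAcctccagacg
Tars, chr15:11399640-11399709, minus strand: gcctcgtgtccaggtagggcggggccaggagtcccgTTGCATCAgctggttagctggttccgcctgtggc
Yars, chr4:129189870-129189927, plus strand: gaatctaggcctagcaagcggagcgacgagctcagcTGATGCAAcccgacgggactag

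In Aars, Gars and Tars the element shown begins 112, 30 and 15 bases before the start, and in Iars and Yars 7 and 3 bases after it. In Aars, Gars, Iars and Tars it is written as its reverse complement. Aars holds a second match 9 bases after the start. Of these 5 genes Iars alone had both KO libraries below both WT libraries. Among the other cytosolic genes with that order, Qars and Sars were searched and held no match. Cars, Nars, Rars, Vars and Wars could not be searched. Their log2 fold changes were −0.18 for Aars, −0.27 for Gars, −0.52 for Iars, −0.31 for Tars and −0.32 for Yars.

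Of 28 other genes of the integrated stress response, the pathway that acts through ATF4, 26 were tested. A negative log2 fold change was found for 17 and a positive one for 9, with a median of −0.63, and 0 passed the threshold. Without KO replicate 8 the median was −0.25 with 18 of the 26 below 0. Both KO libraries were below both WT libraries for 13 of the 26 and above for 1, where 19.3% and 14.5% of all genes tested were. The 4 with the smallest p were amino acid transporters and a serine synthesis enzyme. Slc3a2, the heavy chain of several transporters, had 96.8 and 65.7 in KO replicates 1 and 8, against 202 and 269 in WT replicates 3 and 6 (log2 fold change −1.54, SE 0.44, limma adjusted p = 0.910). Slc7a1, which carries cationic amino acids, had 37.6 and 35.3 in KO, against 79.3 and 162 in WT, and the cystine transporter gene Slc7a11 had 25.1 and 66.0 in KO, against 181 and 200.2 in WT (log2 fold change −2.20, SE 0.54, limma adjusted p = 0.905). Phgdh, the first enzyme of serine synthesis, had 57.4 and 12.1 in KO, against 121 and 108 in WT.

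Regulators of the pathway and a classic target had smaller differences. Atf4 itself had 40.7 and 59.0 in KO replicates 1 and 8, against 35.5 and 46.4 in WT replicates 3 and 6, and Ddit3, the stress factor CHOP, had 5.28 and 4.90 in KO, against 5.79 and 3.50 in WT. Both genes overlapped between the groups. Asns, asparagine synthetase, had 16.9 and 7.47 in KO, against 19.9 and 19.1 in WT (log2 fold change −0.73, SE 0.52, limma adjusted p = 0.954). Slc7a11 is also a target of NRF2, and the list is therefore not a readout of ATF4 alone.

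Factors that work beside the synthetases had no common direction. Of 23 such genes tested, 8 had a positive and 15 a negative log2 fold change, with a median of −0.21 and 0 past the threshold. Without KO replicate 1 the median was 0.056, and without WT replicate 3 it was −0.07. Both KO libraries were below both WT libraries for 6 of the 23 and above for 3, close to the 19.3% and 14.5% over all genes tested. Mtfmt, which formylates the mitochondrial initiator tRNA, had 5.50 and 8.25 in KO replicates 1 and 8, against 2.70 and 3.18 in WT replicates 3 and 6. The mitochondrial elongation factor gene Tufm had 26.8 and 19.8 in KO, against 39.4 and 36.5 in WT, and the cytosolic Eef1a1, which carries loaded tRNA to the ribosome, had 3021 and 1635 in KO, against 3770 and 5201 in WT. Ptrh2, a peptidyl-tRNA hydrolase, had 11.4 and 3.61 in KO, against 13.9 and 17.5 in WT. None of these 4 genes overlapped between the groups.

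Lars2, the mitochondrial leucyl-tRNA synthetase, stood apart from all other members in level. It had 34866 and 32076 reads in KO replicates 1 and 8, against 39335 and 168506 in WT replicates 3 and 6. These are 2.28% and 3.05% of all nuclear protein-coding reads in KO (95% Wilson intervals 2.26% to 2.30% and 3.02% to 3.08%), against 1.87% and 13.1% in WT (1.85% to 1.89% and 13.0% to 13.1%). Within each library Lars2 had 7.73 and 10.6 times the reads of the other 39 members together in KO, against 5.81 and 53.9 times in WT. Its level per length was 2103 and 2835 RPKM in KO, against 1716 and 13551 RPKM in WT, where no other member exceeded 65.1 RPKM.

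The difference of Lars2 between the groups rests on WT replicate 6. Its scaled value was 7667 and 8265 in KO replicates 1 and 8, against 7592 and 53537 in WT replicates 3 and 6, so 3 libraries were nearly level and WT replicate 6 was 7.05 times WT replicate 3. The log2 fold change was −1.34 (SE 0.99, limma adjusted p = 0.954) and it became 0.068 without WT replicate 6 and −2.75 without WT replicate 3. The authors' deposited table gives Lars2 a log2 fold change of −1.94 with an adjusted p of 0.603.

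Ribosomal RNA rows were compared with Lars2 library by library. AY036118, a noncoding gene that lies within the exon of Gm42418 on the opposite strand of chromosome 17, at a locus known to hold ribosomal RNA sequence, had 0 reads in both KO libraries and in WT replicate 3, and 418510 reads in WT replicate 6. It was not tested, as it passed the filter in no more than 1 library. The library with the AY036118 reads was thus the library with the high Lars2 value. Rn18s-rs5, the row of the small-subunit ribosomal RNA, took 50.2% and 11.9% of all reads in KO replicates 1 and 8, against 21.2% and 52.3% in WT replicates 3 and 6. It was high in KO replicate 1, where Lars2 was not. Gm26917, from the same locus, had 307845 and 313841 reads in KO, against 801027 and 376101 in WT, and was highest in WT replicate 3. Gm42418 had 471 and 26487 reads in KO, against 198 and 287 in WT. The part of ribosomal RNA reads in the Lars2 value was not tested.

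**Figure D4:**
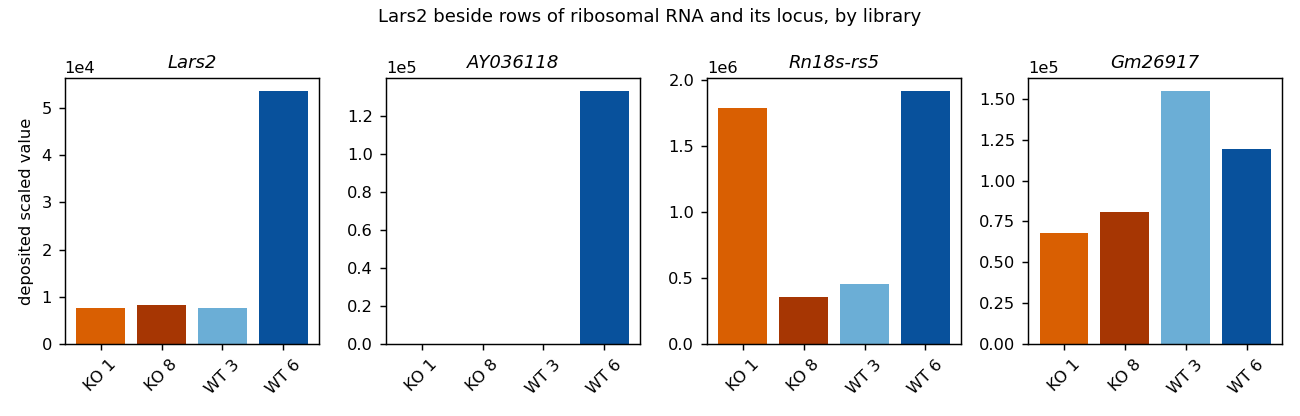
Deposited scaled values (linear axes from 0, a separate scale per panel) of Lars2, AY036118, Rn18s-rs5 and Gm26917 in the 2 KO and 2 WT libraries. Lars2 and AY036118 are high in WT replicate 6 alone, whereas Rn18s-rs5 is high in KO replicate 1 and WT replicate 6.

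The annotated Lars2 transcript was searched for sequence shared with such RNAs. Lars2 lies on chromosome 9, from 123366927 to 123462664 on the plus strand (GRCm38, GENCODE M21), with 21 exons in the transcript of 3894 bases, whose coding part ends at base 2908. Of the transcripts of Gm42418, Gm26917, AY036118 and Gm15564 and those of ribosomal RNA type, 1 shared words of 20 bases with it, a Gm15564 transcript with 33 such words. The longest exact match was 52 bases, from base 3278 to base 3329 of the transcript, in the 3′ untranslated region. The first 30 bases of it are shown because they are where Lars2 reads could be shared with another locus, with capitals marking the letters in common.
Lars2, chr9:123462048-123462077, plus strand: GAATTCACCAAGCGTTGGATTGTTCACCCA

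A piece of the mouse Lars2 3′ untranslated region is known to resemble the large-subunit ribosomal RNA, whose sequence was not used here. No row for Gm15564 or for the large-subunit RNA of the cytosol was used here, and where along Lars2 the reads fell is not recorded in a table of counts per gene. The other members of the mitochondrial class were therefore described without Lars2, and with it their median log2 fold change was −0.03.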

How the data were processed

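Per the labels' protocols, the 4 tumours went through Trizol extraction and Illumina TruSeq library preparation. Values of the 4 deposited columns are a read signal scaled per library: 100% are whole multiples of 1 step in their column (tolerance 0.001), which gave read counts on division. The submitters' processing notes name DESeq and build mm9, without role or version; the aligner, counter and strand use are not given in sources used here. Log2 fold changes and adjusted p-values of the authors' table are cited as deposited, and its fold change of S100a14 is negative, so negative means lower in KO.

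Limma 3.58.1 (R 4.3.3, trended prior, two-sided, genotype as the sole term) was run on log2(value + 1), a scale on which the change of scarce genes is understated. Adjustment was Benjamini-Hochberg over 12304 genes. One read equals 0.220 and 0.258 in KO replicates 1 and 8 and 0.193 and 0.318 in WT replicates 3 and 6. The code was tested on simulated data. Exon lengths came from GENCODE M21 (GRCm38), matched by gene ID, and count every annotated transcript. Alternatives included edgeR 4.0.16 and DESeq2 1.42.0 on the recovered read counts.

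Members and lists were chosen with earlier results of these data known. Values per library are given for Lars2, the 12 other members of smallest p and the 3 of highest level per length, and for up to 4 genes of smallest p per other list, plus Eef1e1, Atf4, Ddit3 and Asns. Values of Vars, Sars2 and Nars2 were added after they were seen, because their groups did not overlap. One member enters the counts and medians but is not reported here by itself. Sums without Iars2, and medians of the other lists and of the complex without 1 library, were added after the data were seen.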

Additional observations from a re-analysis of the deposited data

How the results depend on the processing

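No member passed the threshold under any of the 11 alternatives run, and the median of the cytosolic genes kept its sign in all of them. The count of all genes called was 2 without a filter, 0 with a pseudocount of 0.1, 0 in edgeR's quasi-likelihood test and 47 in DESeq2, against 1 in the fit reported; leaving out 1 library in turn gave 0 to 510, the highest without KO replicate 1. Leaving out 1 library in turn, the mitochondrial median without Lars2 lay between −0.25 and 0.30, the log2 fold change of Lars2 between −2.75 (without WT replicate 3) and 0.068 (without WT replicate 6), that of Lars between −1.61 and 0.10, and the cytosolic median between −0.59 and −0.15. The cause of these shifts was not tested. With 1 library left out, the lone library of its group is assumed to vary like the other pair. The median log2 fold change of all genes was −0.03 under the deposited scaling, 0.02 under quantile normalization and 0.02 with factors from nuclear protein-coding genes without Lars2. No paired analysis was possible because the labels name no pairs between the groups. Read depth limits the scarce genes of both classes, with as few as 4 reads in a library.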
